A study of Mus musculus with 157 samples.

Results

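Itgal, Itgam and Itgax encode alpha subunits of the leukocyte integrins of the beta 2 class, Itgb2 encodes the beta 2 subunit (CD18) that pairs with each of them, and Icam1 encodes a cell-surface protein of the immunoglobulin family that these integrins bind. The 5 genes were taken by symbol from the gene annotation of the expression tables, and no measured value entered the choice. Each had 1 transcript row in all 8 tables, so 5 of the 24940 genes listed are described here, in 115 RNA-seq libraries of mouse bone marrow-derived macrophages.

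Beta 2 integrins reach the cell surface only as pairs of an alpha and a beta chain, so every alpha subunit depends on Itgb2. Other receptors switch them from a bent, low-affinity form to an extended one through Rap1, talin and kindlin at the cytoplasmic tails (inside-out activation), and a bound integrin signals back through Src-family kinases and Syk (outside-in signalling). On macrophages they serve adhesion, migration and the uptake of complement-coated particles, Itgax is widely used as a marker of dendritic cells, and Icam1 is a textbook target of NF-kappaB in inflamed cells.

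The macrophages had been grown from bone marrow with the growth factor M-CSF and were then given phosphate-buffered saline (PBS) or 250 µg/mL of a particle. The particles were monosodium urate crystals (MSUc, the crystals of gout), calcium pyrophosphate dihydrate crystals (CPPD), silica nanoparticles and aluminum hydroxide (alum). The libraries formed 45 groups of 2 or 3. The time course of wild-type (WT) cells had PBS and MSUc at 10 and 30 min and at 1, 2 and 5 h, with 2 libraries per group, and the labels give no time for the other tables. The particle table held WT cells with PBS, MSUc or CPPD (3 libraries each) and silica or alum (2 each). Its columns name 3 silica and 2 alum libraries, whereas the titles list 2 silica and 3 alum samples. Columns 1 and 2 of each were taken by name, so every silica and alum value of that table rests on this match. Libraries labelled Tfe3WT and Tfe3KO received PBS, MSUc, CPPD or silica (3 each). Cells labelled TfebWT (2 PBS and 3 MSUc libraries) were set beside TfebTg cells, which carry a Tfeb transgene whose driver the labels do not name (3 and 3). WT, Bhlhe40-/- (B40KO) and Bhlhe41-/- (B41KO) cells received PBS or MSUc (2 each). Ampka1-/- cells (Ampka1KO) and congenic Ampka1WT cells, from mice of 7 to 8 weeks, received PBS or MSUc (3 each). WT cells were also grown with 1 µM SGC0946, an inhibitor of the histone methyltransferase DOT1L, from day 0 (2 PBS and 3 MSUc libraries) or with vehicle (3 and 3), and others were given metformin, at a dose the labels do not state, or vehicle (3 libraries in each of 4 groups). The culture medium of the C57BL/6, TfebTg, B40KO and B41KO cells was DMEM with M-CSF at 16 ng/mL; that of the Ampka1 cells was RPMI with a lower dose, 5 ng/mL. No label says whether libraries of a group came from separate mice or cultures, so the p-values below measure only the spread between these libraries, which may be technical.

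Levels are in TPM (reads per transcript length, scaled to a fixed total per library), as the authors deposited them, and each table was normalized on its own. The libraries held 2.12 to 22.1 M reads (median 10.1 M). All 7 macrophage markers examined were detected in every group, with none at 0 in all libraries of any group, and their summed level ran from 8298 to 40810 TPM over the libraries of the particle, Tfe3, Ampka1, metformin and time-course tables. The genes named in the genotypes were checked first. Bhlhe40 was at 6.26 TPM in B40KO against 66.9 TPM in WT cells with PBS, and Tfeb at 80.5 TPM in TfebTg against 44.1 TPM in TfebWT. Prkaa1, which encodes AMPK alpha 1, was not lower in Ampka1KO (26 against 24.5 TPM with PBS), Bhlhe41 was at 48.0 against 52.8 TPM in B41KO, and Tfe3 at 68.3 against 98.4 TPM in Tfe3KO. With MSUc, Bhlhe41 was at 49.9 against 92.5 TPM without overlap, Tfe3 was not lower in Tfe3KO (85.7 against 82.1 TPM) and Prkaa1 was at 28.8 against 22 TPM. The labels do not say which exons were removed, so these 3 levels do not check the labels. In 12 libraries titled Tfe3WT the genotype field reads Tfe3KO, and TfebWT MSUc replicate 3 has PBS in its treatment field. Groups follow the titles.

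The 3 alpha subunit genes lie on chromosome 7 of mm10, all on the plus strand. Itgal spans chr7:127296260-127335137, Itgam chr7:128062640-128118491 and Itgax chr7:128129568-128150657. Itgax begins 11076 bases past the end of Itgam, and 727.5 kb separate Itgal from Itgam. Itgb2 lies on chromosome 10 (chr10:77530348-77565674) and Icam1 on chromosome 9 (chr9:21015940-21028814), both on the plus strand. The authors' deposited lists of regions that MSUc changed in these macrophages held 15 regions assigned to the 5 genes, and the description begins with histone regions at the gene starts. Per the file headers the histone signals are from 5 h, each column from a numbered mouse. Signal values, fold changes and adjusted p-values are the authors' own.

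At the Itgal promoter (chr7:127295243-127297243), the authors' deposited table listed trimethylated histone H3 lysine 4 (H3K4me3, a mark of active promoters) as reduced, with signals of 32.95 and 45.23 in PBS against 8.38 and 11.2 in MSUc, a log2 change of -2.02 and an adjusted p of 0.012. At the Itgam promoter (chr7:128061626-128063626), it was acetylated lysine 27 (H3K27ac, a mark of active promoters and enhancers) that the authors' deposited table listed as reduced. Its signals were 170, 183 and 239 in PBS and 92.4 and 72.6 in MSUc (authors' log2 change -1.32, adjusted p = 0.00038). The Itgax promoter (chr7:128128400-128130400), next to it on the chromosome, went the other way in the authors' deposited table. H3K27ac there was at 34.8, 16.3 and 18.0 in PBS and 99.4 and 80.4 in MSUc (authors' log2 change 1.89, adjusted p = 0.00079). In intron 1 of Icam1 (chr9:21015734-21017734), the authors' deposited table listed H3K27ac as reduced, from 78.2, 61.1 and 99.0 in PBS to 35.0 and 40.2 in MSUc (authors' log2 change -1.13, adjusted p = 0.042). This region also covers the start of Icam1, whose transcript went the other way at 5 h (log2 difference 1.10). Itgb2 had no listed histone region. Its regions were peaks of TFE3 (introns 3 and 8), TFEB (intron 1) and DOT1L (intron 5) gained with MSUc, and a DOT1L peak lost in intron 1, and TFEB gained 2 peaks in intron 14 of Itgax. DOT1L peaks lost with MSUc were also assigned to Itgal (5820 bases before the start) and Itgam (13639 bases before it), so 3 of the 5 members were on that list. The TFE3, TFEB and DOT1L lists held no peak closer to a gene start than 3001 bases. They therefore cannot show whether these factors changed at a promoter. Of the 12350 genes tested in the time course, the lists held a region for 7.41% (H3K27ac gained), 7.46% (H3K27ac reduced), 3.61% (H3K4me3 reduced), 16.9% (TFE3 gained), 18.1% (TFEB gained), 14.6% (DOT1L gained) and 14.3% (DOT1L lost).

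RefSeq's promoter table (GRCm38.p6) matched 3 of the 5 genes, and the 250 bases before each start are shown because the histone regions above overlie them and the 3 genes took different courses with MSUc. Itgal and Itgb2 were not matched. Capitals mark the letters of the motifs searched on both strands, and a match describes letters in the window, not a bound site. For Itgam (chr7:128062390-128062639, plus strand), the capitals are the PU.1 core GAGGAA, which starts 84 bases before the gene on the plus strand and 15 before it on the minus strand. For Itgax (chr7:128129300-128129549, plus strand), they are the PU.1 core GGGGAA at 175 bases and the AP-1 motif TGAGTCA, which reads TGACTCA on the minus strand, at 56 bases before the start. These distances count from RefSeq's start, which for Itgax lies 18 bases before the start in the deposited tables and for the other 2 genes is the same base. For Icam1 (chr9:21015690-21015939, plus strand), they are in order an E-box (CATGTG on the minus strand, at 174 bases), 2 NF-kappaB matches at 153 and 120 bases, GGGGAA at 58 bases and the interferon-type GAS motif TTCNNNGAA at 42 bases.
Itgam: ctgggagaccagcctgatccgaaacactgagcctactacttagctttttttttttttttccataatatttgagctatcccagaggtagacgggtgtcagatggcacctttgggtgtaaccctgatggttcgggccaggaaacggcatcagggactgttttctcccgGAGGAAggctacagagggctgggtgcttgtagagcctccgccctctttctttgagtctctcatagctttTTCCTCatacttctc
Itgax: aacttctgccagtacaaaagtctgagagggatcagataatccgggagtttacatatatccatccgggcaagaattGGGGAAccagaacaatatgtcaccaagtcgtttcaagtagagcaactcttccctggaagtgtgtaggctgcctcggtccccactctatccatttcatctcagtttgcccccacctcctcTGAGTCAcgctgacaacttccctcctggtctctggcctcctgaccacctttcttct
Icam1: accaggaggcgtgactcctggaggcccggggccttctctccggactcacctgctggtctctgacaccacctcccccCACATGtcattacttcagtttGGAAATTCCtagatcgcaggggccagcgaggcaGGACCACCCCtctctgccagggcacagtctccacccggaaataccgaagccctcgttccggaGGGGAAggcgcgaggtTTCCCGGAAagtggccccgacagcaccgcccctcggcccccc
The NF-kappaB match at 120 bases follows the longer form of the motif, held by 23.2% of the 32851 promoter windows of this length. The shorter form at 153 bases (23.0% of windows) and the GAS motif (7.02%) were added to the search after the sequences had been seen. GAGGAA was in 23.3%, GGGGAA in 20.3%, CATGTG in 12.3% and the AP-1 motif in 4.46% of the windows.

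In macrophages with PBS, Itgb2 was the most abundant of the 5 transcripts and Itgam the most abundant alpha subunit. Across the 29 control PBS libraries, Itgb2 ran from 318 to 608 TPM (median 400) and Itgam from 127 to 364 TPM (median 247). Itgal had a median of 60.6 TPM (31.0 to 89.7), Icam1 of 50.6 TPM (33.7 to 75.4) and Itgax of 13.4 TPM (4.65 to 62.6). The neighbours Itgal and Icam1 were not separated, since Itgal was the higher of them in 15 of the 29 libraries. Itgam exceeded both other alpha subunits in 115 of 115 libraries, and Itgb2 was the highest of the 5 in 108 of 115. The order Itgb2, Itgam, Icam1, Itgal, Itgax held in 20 of the 45 group means, and Itgam stood above Itgb2 in 2 group means. Itgax was the member whose resting level differed most between tables, with means of 4.98 TPM in the particle table and 62.5 TPM in the Bhlhe table, 12.54-fold apart. The other 4 differed by 1.78-fold (Itgb2) to 2.62-fold (Itgam). These differences run across tables that were normalized separately, and they were not tested.

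The time course showed Icam1 moving first and the alpha subunits later. At 10 and 30 min, 0 of the 5 genes passed an adjusted p of 0.05 by limma, 0 had an unadjusted p under 0.05 and 0 were called by voom on the recovered reads; 0.0567% and 0.68% of the 12350 genes tested were called at those times. At 1 h, Icam1 was at 103 and 92.3 TPM with MSUc and at 60.2 and 67.9 TPM with PBS, with no overlap. It rose by 0.60 ± 0.14 on the log2(TPM + 1) scale (SE, adjusted p = 0.036), 1 of 5 members against 3.28% of all genes. This call rested on 2 libraries a group, and without any 1 of the 4 the adjusted p was 0.084 to 0.3: 0.3 without PBS replicate 1, 0.084 without PBS replicate 2, 0.24 without MSUc replicate 1 and 0.095 without MSUc replicate 2.

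At 2 h, when 33.5% of all genes were called, 3 of the 5 members had changed. Icam1 reached 193 and 157 TPM with MSUc against 59.5 and 70.8 TPM with PBS, its highest level in the course (log2 difference 1.41 ± 0.14, adjusted p = 1.1e-05). Itgax was at 16.9 and 16.4 TPM against 14.0 and 10.3 TPM, a rise of 0.44 ± 0.13 (adjusted p = 0.022), and its groups did not overlap. Itgam was at 277 and 270 TPM against 324 and 341 TPM and fell by 0.28 on the log2 scale (SE 0.10, adjusted p = 0.045). The small changes of Itgax and Itgam were not stable. The Itgax call was lost without PBS replicate 2 (adjusted p = 0.23, where the estimate was 0.23), MSUc replicate 1 (0.1) or MSUc replicate 2 (0.063). The Itgam call was lost without any 1 of the 4 libraries (adjusted p = 0.087 to 0.19) and with median-of-ratios scaling (-0.11, adjusted p = 0.34). Itgal was at 39.8 and 29.3 TPM with MSUc against 46.4 and 65.5 TPM with PBS, groups that did not overlap, but its difference of -0.68 ± 0.35 did not pass the test (adjusted p = 0.17). Itgb2 did not pass either, at 362 and 398 TPM with MSUc against 378 and 318 TPM.

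By 5 h, all 5 members had changed, against 49.3% of all genes (16.4% higher and 32.9% lower). The subunits of the integrin pair had separated by then. Itgal was at 24.5 and 19.1 TPM with MSUc and at 48.3 and 79.6 TPM with PBS, and it fell by 1.48 on the log2 scale (SE 0.35, adjusted p = 0.0038). Itgam was at 195 and 212 TPM against 331 and 364 TPM and fell by 0.77 (SE 0.10, adjusted p = 4.3e-05). Both alpha subunits were lower in each MSUc library than in either PBS library. Itgb2, their shared partner, was at 480 and 451 TPM against 377 and 323 TPM and rose by 0.42 ± 0.11 (adjusted p = 0.0063). Itgax rose by 0.41 ± 0.13 (adjusted p = 0.02), from 13.4 and 11.8 TPM to 18.4 and 15.9 TPM. Icam1 was still up, at 162 and 140 TPM against 64.1 and 75.2 TPM (1.10 ± 0.14, adjusted p = 3.7e-05). The rise of Itgb2 lost its call without PBS replicate 2 (adjusted p = 0.076), and that of Itgax without PBS replicate 2 (0.13) or MSUc replicate 1 (0.14). The summed level of the 7 macrophage markers was 12805 to 14417 TPM with MSUc at 5 h and 17483 to 24921 TPM with PBS. The 3 monocyte markers summed to 17.0 to 20.9 TPM with MSUc and 75.9 to 105 TPM with PBS, of which 1 was called lower, Ccr2, a chemokine receptor (-2.61, adjusted p = 2.9e-06). The part of these markers' changes in the falls was not tested. In bulk RNA, fewer cells of a type and less RNA per cell cannot be told apart.

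**Figure D1:**
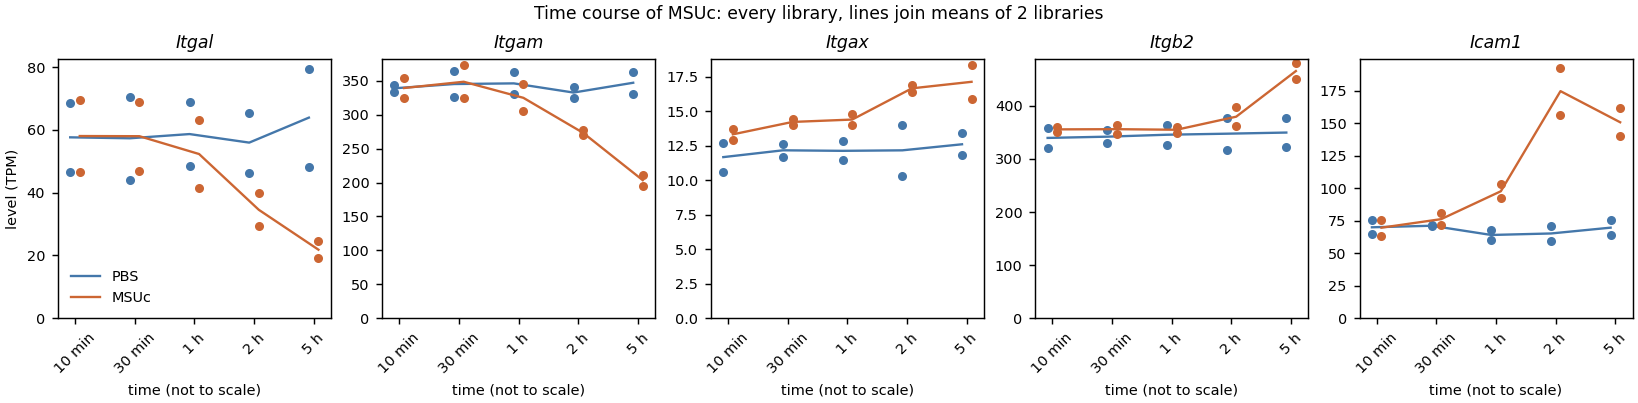
Level of each gene in TPM (y axis, from 0) at each time (x axis, not to scale) in the 2 PBS and 2 MSUc libraries (points), with lines through the group means. Icam1 with MSUc climbs to 193 and 157 TPM at 2 h, while Itgal and Itgam fall below every PBS library at 5 h.

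The MSUc comparison was repeated in control cells of all 8 tables, taking the 5 h point of the time course. Itgal, the LFA-1 alpha subunit, fell in 8 of 8 tables, with log2 differences between -1.48 and -1.89. Its PBS mean was 2.93 to 3.92 times its MSUc mean, and the groups overlapped in none. With TfebWT MSUc replicate 3 placed in PBS, as its treatment field reads, the TfebWT call was lost (-1.25, adjusted p = 0.2), and so was that of Itgam there (-0.30, adjusted p = 0.21). In the particle table Itgal was at 12.2, 12.7 and 13.1 TPM with MSUc and at 31.0, 34.6 and 49.1 TPM with PBS (-1.49 ± 0.19, adjusted p = 2.7e-05). In the metformin table's vehicle cells it was at 19.7, 19.4 and 20.1 TPM against 60.6, 58.2 and 63.7 TPM (-1.57 ± 0.10, adjusted p = 1.1e-07). The MSUc values were 10.6 to 33.8 TPM over all 8 tables and the PBS values 31.0 to 89.7 TPM, so the level with crystals in one table reached the level without them in another. For background, 16.8% of the 11186 genes tested in all 8 tables fell in all 8, and 7.72% rose in all 8.

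Itgam, the Mac-1 alpha subunit, also fell in 8 of 8 tables, by less than Itgal in each of them (-0.37 to -0.81). In the particle table it was at 136, 120 and 146 TPM with MSUc against 235, 198 and 247 TPM with PBS (-0.75 ± 0.13, adjusted p = 0.00028), and in Tfe3WT cells at 146, 142 and 150 TPM against 240, 239 and 260 TPM. The smallest change was in TfebWT cells, at 116, 107 and 120 TPM against 158 and 138 TPM, and there the call was lost without PBS replicate 1 (adjusted p = 0.053). Median-of-ratios scaling moved the median of all genes in these 8 comparisons up by 0.13 to 0.28, and under it the Itgam calls were lost in TfebWT (-0.07), WT of the Bhlhe table (-0.19) and Ampka1WT (-0.07). The falls of Itgal kept their calls in all 8 tables under that scaling. The summed monocyte markers were lower in each MSUc library than in each PBS library in 5 of the 8 tables, such as the particle table (4.37 to 5.93 against 18.8 to 25.8 TPM) and TfebWT (3.81 to 7.34 against 26.5 to 31.6 TPM). They overlapped in the other 3, Tfe3WT, WT of the Bhlhe table and the metformin vehicle. The part of the monocyte markers in the falls of Itgal and Itgam was not tested in any table.

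Itgax, the CD11c gene, had no common course. It rose in the time course and in the particle table, where it went from 5.47, 4.65 and 4.83 TPM with PBS to 9.84, 9.95 and 8.13 TPM (0.78 ± 0.12, adjusted p = 0.00015). It fell in vehicle cells of the metformin table, from 38.0, 32.1 and 34.7 TPM to 28.4, 21.6 and 24.6 TPM (-0.48, adjusted p = 0.011). In the other 5 tables it did not pass the test. The rises came in tables where Itgax rested at 4.65 to 13.4 TPM and the fall in one where it rested at 32.1 to 38.0 TPM, but Tfe3WT cells, at 8.29 to 12 TPM with PBS, were at 9.57 to 12.6 TPM with MSUc. With median-of-ratios scaling, Itgax was also called higher in TfebWT (0.58, against 0.31). Its estimate in vehicle cells of the SGC0946 table turned from -0.11 to 0.14 with that scaling and was not called with either.

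Itgb2, the shared beta chain, rose in 4 tables, fell in 1 and did not pass the test in 3. Its largest rise was in the particle table, from 326, 328 and 359 TPM to 506, 503 and 546 TPM (0.62 ± 0.11, adjusted p = 0.00035). The fall was in vehicle cells of the metformin table, from 466, 446 and 479 TPM to 351, 347 and 351 TPM (-0.41, adjusted p = 0.0004). Of the rises, that in TfebWT (0.25, adjusted p = 0.028) was lost without any 1 of PBS replicate 1 (0.13), PBS replicate 2 (0.08), MSUc replicate 2 (0.074) and MSUc replicate 3 (0.081). That in vehicle cells of the SGC0946 table (0.16, adjusted p = 0.018) was lost without vehicle MSUc replicate 1 (0.061). Median-of-ratios scaling added rises in Tfe3WT (0.41), WT of the Bhlhe table (0.32) and Ampka1WT (0.32, against -0.04).

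Icam1, the ligand, rose in 6 of the 8 tables and fell in none. The rise was largest in the particle table, from 36.4, 37.7 and 47.6 TPM to 122, 106 and 120 TPM (1.50 ± 0.14, adjusted p = 3.2e-06), and next in Ampka1WT cells, from 38.1, 40.1 and 43.1 TPM to 90.1, 112 and 94.6 TPM (1.27 ± 0.12, adjusted p = 2.6e-06). In Tfe3WT cells it was smaller, from 50.6, 53.9 and 56.4 TPM to 63.7, 76.0 and 74.2 TPM (0.40 ± 0.08, adjusted p = 0.00015). The rise in WT of the Bhlhe table, 0.73, was 0.46 without WT MSUc replicate 2. TfebWT cells, at 73.4, 89.8 and 87.6 TPM against 65.6 and 71.9 TPM, did not pass (0.27, adjusted p = 0.067), although without MSUc replicate 1 the adjusted p was 0.025. Vehicle cells of the metformin table, at 36.8, 41.4 and 48.7 TPM against 35.9, 39.0 and 33.7 TPM, did not pass either (0.21 ± 0.14, adjusted p = 0.21). Both were called with median-of-ratios scaling (0.56 and 0.37). The 8 tables' share of all genes called was 49.3% (time course), 63.0% (particle), 61.6% (Tfe3WT), 45.5% (TfebWT), 60.5% (WT of the Bhlhe table), 63.7% (Ampka1WT), 55.4% (vehicle of SGC0946) and 53.9% (vehicle of metformin).

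**Figure D2:**
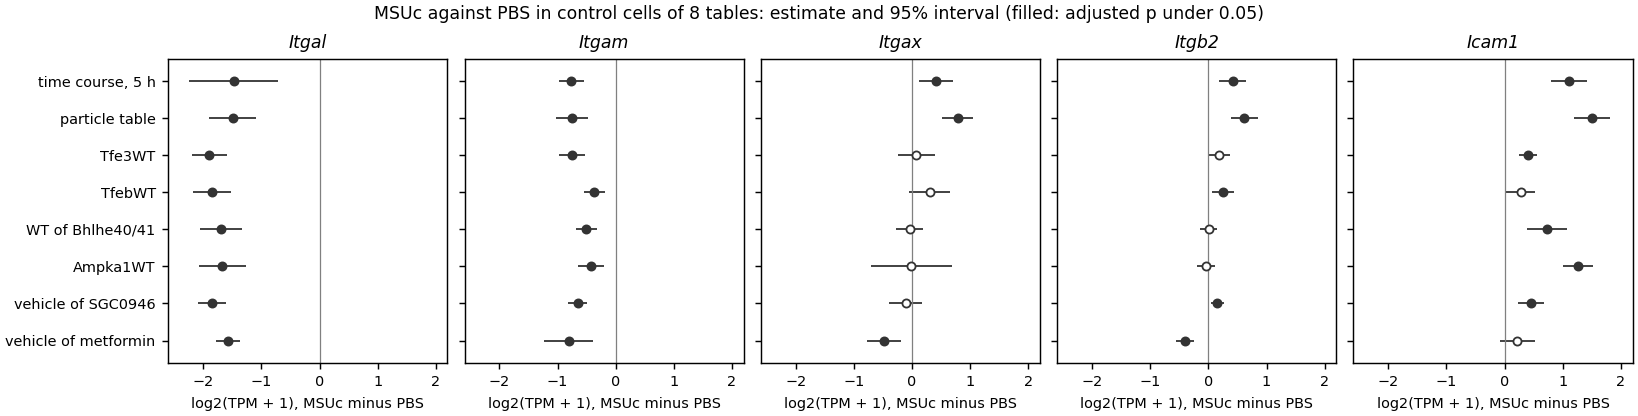
MSUc minus PBS on the log2(TPM + 1) scale (x axis) with the 95% interval, for control cells of the 8 tables (rows), filled where the adjusted p was under 0.05. All 8 Itgal estimates lie between -1.48 and -1.89, while the Itgax estimates fall on both sides of 0.

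The balance of alpha subunits to their shared beta chain moved with MSUc in every table. TPM is per transcript length, so the levels of different genes can be added. The summed level of Itgal, Itgam and Itgax, divided by that of Itgb2, was lower in each MSUc library than in each PBS library in 8 of 8 tables. In the particle table it went from a mean of 0.799 (0.723 to 0.840) to 0.301 (0.284 to 0.312), in the 5 h time course from 1.23 to 0.521 and in Tfe3WT cells from 0.725 to 0.354. The smallest proportional move was in the Ampka1WT and metformin vehicle cells, from 1.06 to 0.742 and from 0.489 to 0.340. Within the alpha subunits, Itgal also lost share. It made up 14.1% of the alpha sum with PBS and 8.15% with MSUc in the particle table, and 26.8% and 16.6% in vehicle cells of the metformin table, and its share was lower in each MSUc library in 8 of 8 tables. Both counts place TfebWT MSUc replicate 3 by its title. Its ratio of 0.272 and Itgal share of 7.99% lay between those of replicates 1 and 2 (0.291 and 0.251, 7.16% and 9.51%). Placed in PBS, as its treatment field reads, it would make the TfebWT groups overlap in both. The ratio is taken within a library, so the scaling of that library does not move it. It was computed from members whose changes are given above and is a description.

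The 4 particles were compared in the particle table with the same 3 PBS libraries, and CPPD, silica and alum also directly with MSUc, but not with each other. With CPPD, 4 of the 5 members passed the test (52.4% of all genes did), with silica 4 (68.4%) and with alum 4 (46.2%). Since the 4 comparisons share their PBS libraries, the values are given side by side.

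Itgal was at 22.2, 30.9 and 34.7 TPM with CPPD, at 14.2 and 10.7 TPM with silica and at 21.4 and 25.9 TPM with alum, against 31.0, 34.6 and 49.1 TPM with PBS. Silica lowered it as far as MSUc had (-1.53), the CPPD libraries overlapped PBS (-0.37 ± 0.19, adjusted p = 0.12), and alum lay between (-0.65 ± 0.21, adjusted p = 0.023). Voom on the recovered reads called the CPPD difference (-0.46, adjusted p = 0.025). The alum call was lost without PBS replicate 3 (adjusted p = 0.083) or alum replicate 1 (0.16). Compared directly with MSUc, Itgal was higher with CPPD by 1.12 (adjusted p = 0.0012, where 23.6% of all genes were called). It was higher with alum by 0.85 (adjusted p = 0.0049, 53.3% called), but this was lost without alum replicate 2 (0.052) and with median-of-ratios scaling (0.44, adjusted p = 0.091). Longer transcripts were higher with alum (Spearman's rho of the difference with transcript length over 12314 genes 0.486 against PBS and 0.44 against MSUc). Genes of 2500 to 5500 bases, the range in which all 5 members lie, had a median difference of 0.45 from MSUc, and the part of length in the members' alum values was not tested.

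Itgam was lowest with silica, at 118 and 92.7 TPM (-1.10 against PBS), and was at 223 and 221 TPM with alum, within the PBS range (-0.03, adjusted p = 0.9). With CPPD it was at 188, 147 and 181 TPM, all below the PBS libraries. That fall of 0.40 on the log2 scale (adjusted p = 0.02) was lost with median-of-ratios scaling (-0.17), without PBS replicate 1 (adjusted p = 0.062), PBS replicate 3 (0.08) or CPPD replicate 2 (0.094). Directly, silica was below MSUc by 0.35 (adjusted p = 0.048, 63.7% of all genes called), a call lost without MSUc replicate 1 (0.094), MSUc replicate 3 (0.14) or silica replicate 2 (0.39). Alum was above MSUc by 0.73 (adjusted p = 0.0012), a call lost with median-of-ratios scaling (0.30, adjusted p = 0.061). CPPD was above MSUc by 0.35 without passing (adjusted p = 0.064), and it passed with the replicate number as a block (0.013), where same-numbered libraries deviated together.

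Itgax rose with CPPD to 9.79, 9.84 and 10.3 TPM (0.88, adjusted p = 9.1e-05) and with alum to 9.55 and 9.78 TPM (0.84, adjusted p = 0.00036), about where MSUc had it. With silica it was at 5.27 TPM, within the PBS values of 4.65 to 5.47 TPM, and at 3.74 TPM, below them. The silica estimate of -0.13 ± 0.14 did not pass (adjusted p = 0.41) and was 0.21 with median-of-ratios scaling. Silica was below MSUc by 0.91 when compared directly, a called difference.

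Itgb2 was the member on which silica and the other particles went opposite ways. It fell with silica to 212 and 152 TPM, from 326, 328 and 359 TPM with PBS (-0.90 ± 0.12, adjusted p = 3.6e-05). It rose with CPPD to 436, 445 and 472 TPM (0.42, adjusted p = 0.0063) and with alum to 419 and 459 TPM (0.38, adjusted p = 0.022). The alum call was lost without PBS replicate 1 (0.061), PBS replicate 2 (0.06) or alum replicate 2 (0.15) and in voom on the recovered reads (0.15, adjusted p = 0.31). The direct difference of silica from MSUc, -1.52, was the largest of any member between those 2 particles.

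Icam1 rose with all 4 particles, and most with CPPD. It was at 187, 259 and 206 TPM with CPPD, 5.36 times the PBS mean (2.39 ± 0.14, adjusted p = 1.2e-07). It was at 114 and 128 TPM with alum (1.56 ± 0.16, adjusted p = 1.1e-05) and at 73.2 and 56.0 TPM with silica (0.66 ± 0.16, adjusted p = 0.0031). CPPD was above MSUc by 0.89 (adjusted p = 0.001), silica was below it by 0.84 (called), and alum differed from it by 0.06 without passing. The ratio of alpha subunits to Itgb2 had a mean of 0.468 with CPPD, 0.582 with alum and 0.676 with silica, between MSUc (0.301) and PBS (0.799). The lower ratio with silica was not repeated in the Tfe3 table. Its mean there was 0.727 with silica and 0.725 with PBS in Tfe3WT, and 0.576 and 0.557 in Tfe3KO. With CPPD the Tfe3WT mean was 0.438.

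Tfe3WT cells repeated 3 of these particles in a separate table. CPPD raised Icam1 from 50.6, 53.9 and 56.4 TPM to 236, 264 and 227 TPM, 4.52-fold (2.15 ± 0.08, adjusted p = 2.3e-14), while MSUc left it below 76.1 TPM. Silica lowered Itgb2 from 408, 431 and 437 TPM to 266, 255 and 290 TPM (-0.65, called) and left Itgax at 8.78, 10.6 and 11.1 TPM (-0.02, adjusted p = 0.92). Itgal fell with CPPD there (-0.57, adjusted p = 0.0021) and with silica (-1.01), and Itgam fell with both (-0.47 and -0.61). The 2 falls with CPPD were lost with median-of-ratios scaling (-0.32 and -0.22). Itgax rose with CPPD (0.56, adjusted p = 0.0038). Itgb2 did too (0.29, adjusted p = 0.0099), a call lost without CPPD replicate 3 (0.051). All 5 members passed with CPPD (60.2% of all genes) and 4 with silica (65.8%).

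Markers of other cells moved with silica in both tables. Of 9 neutrophil markers 5 were tested in the particle table, where 4 rose; their summed level was 237 and 339 TPM with silica and 43.1 to 99.0 TPM with PBS, and Ly6g, at 0 with PBS, was detected. In Tfe3WT cells 6 of 8 tested rose, with sums of 1252 to 1660 TPM against 245 to 470 TPM. The 7 macrophage markers summed to 35096 and 39745 TPM with silica against 28074 to 30879 TPM with PBS in the particle table. With MSUc, 2 of 3 tested dendritic cell markers rose, with sums of 9.95 to 12.2 TPM over all 8 against 2.17 to 3.40 TPM, and Cd209a was at 0 with PBS. The part of these cells in the members' values was not tested.

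**Figure D3:**
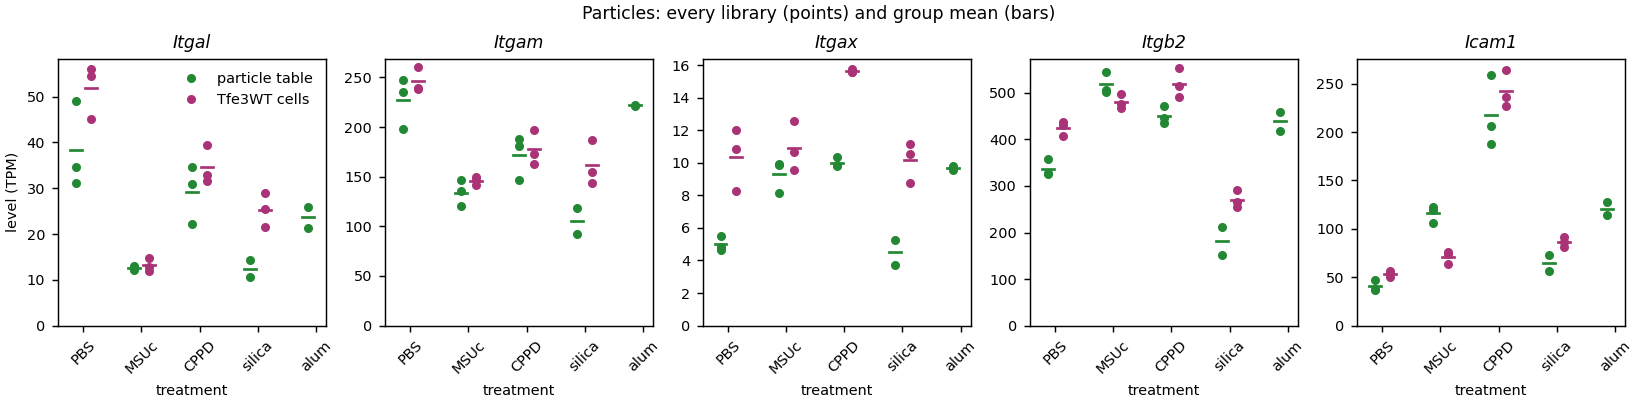
Level of each gene in TPM (y axis, from 0) by treatment (x axis) in the particle table and in Tfe3WT cells, with each library as a point and each group mean as a bar. Icam1 is highest with CPPD in both tables (187 to 264 TPM), and Itgb2 with silica lies below every PBS library.

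Among the genotypes, libraries labelled Tfe3KO differed from Tfe3WT mainly in Itgax. It was lower in all 4 conditions. With PBS it was at 5.91, 6.48 and 4.71 TPM against 8.29, 10.8 and 12 TPM (-0.76 ± 0.15, adjusted p = 0.0099), with MSUc at 5.91, 6.47 and 4.32 TPM against 9.57, 12.6 and 10.7 TPM (-0.87, adjusted p = 0.00075). With CPPD it was at 9.09, 7.17 and 6.17 TPM against 15.6, 15.8 and 15.6 TPM (-0.99, adjusted p = 0.00027), and with silica at 4.79, 5.32 and 4.09 TPM against 8.78, 10.6 and 11.1 TPM (-0.96, adjusted p = 0.00035). The groups did not overlap in any of the 4. With PBS it was the one member called, where 2.37% of all genes were, and that call was lost without Tfe3WT PBS replicate 3 (0.055) or Tfe3KO PBS replicate 3 (0.069) and with the 2 groups fitted alone (0.17).

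Icam1 was higher in Tfe3KO than in Tfe3WT with MSUc, at 86.8, 88.0 and 97.0 TPM against 63.7, 76.0 and 74.2 TPM (0.34 ± 0.08, adjusted p = 0.0055, 10.7% of all genes called). It was also higher with CPPD, at 299, 305 and 335 TPM against 236, 264 and 227 TPM (0.37, adjusted p = 0.0042, 8.1% called). The MSUc call was lost with the 2 groups fitted alone (0.052). With PBS the groups overlapped, at 48.0 to 54.9 TPM against 50.6 to 56.4 TPM. The test of whether the response to the particle itself differed by genotype gave 0.39 ± 0.11 for MSUc (adjusted p = 0.075) and 0.42 for CPPD (adjusted p = 0.079), neither past the threshold. With the replicate number as a block both differences passed (adjusted p = 0.04 for MSUc and 0.042 for CPPD). For CPPD and PBS same-numbered libraries deviated together within each genotype. For MSUc and PBS they correlated at 0.083 to 0.198 in Tfe3WT and at 0.158 to 0.368 in Tfe3KO. Of the 5 members 0 were called by limma in the 3 tests of a difference in response, 1, 1 and 0 had an unadjusted p under 0.05 for MSUc, CPPD and silica, and voom called 0; 1.73%, 0.93% and 1.52% of all genes were called. Silica called Itgax alone between the genotypes (12.5% of all genes).

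Within Tfe3KO cells the called changes had the sign of the Tfe3WT estimates. Itgal fell with MSUc (18.2, 15.2 and 13.3 TPM against 65.4, 55.8 and 51.5 TPM, -1.82), and Icam1 reached 6.04 times its PBS mean with CPPD (2.57, adjusted p = 1.7e-15). Itgb2 fell with silica to 327, 298 and 253 TPM from 515, 440 and 430 TPM (-0.66). The members called numbered 4 with MSUc (62.5% of all genes), 3 with CPPD (61.2%) and 4 with silica (69.4%). Of the CPPD calls, that of Itgal (-0.40, adjusted p = 0.021) was lost with median-of-ratios scaling (-0.16, adjusted p = 0.4) and without Tfe3KO PBS replicate 1 (0.1), CPPD replicate 2 (0.064) or CPPD replicate 3 (0.093). That of Itgam (-0.33, adjusted p = 0.011) was lost with that scaling (-0.08, adjusted p = 0.59) and without PBS replicate 1 (0.077) or CPPD replicate 3 (0.07). The rise of Itgb2 with MSUc (0.27, adjusted p = 0.013) was lost without PBS replicate 2 (0.051), PBS replicate 3 (0.063) or MSUc replicate 1 (0.07).

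TfebTg cells also had less Itgax. With MSUc it was at 13.5, 12.3 and 9.01 TPM against 21, 18.6 and 19.3 TPM in TfebWT, with no overlap (-0.73 ± 0.14, adjusted p = 0.018), and it was the one member called, where 3.48% of all genes were. The call was lost without TfebWT MSUc replicate 1 (0.075) or replicate 3 (0.062) and with the 2 groups fitted alone (0.059). It was lost too when TfebWT MSUc replicate 3 was placed with PBS, as its treatment field reads (-0.74, adjusted p = 0.29). Itgal with MSUc was at 9.83, 7.65 and 6.59 TPM against 10.6, 13.2 and 12.1 TPM, with no overlap. It missed the threshold by limma (adjusted p = 0.058). It passed with median-of-ratios scaling (-0.54, adjusted p = 0.045), in voom (-0.62, adjusted p = 0.008) and without TfebTg MSUc replicate 1 (-0.67, adjusted p = 0.014). With PBS, Itgax was at 8.80, 9.89 and 10.4 TPM against 14.6 and 16.8 TPM and Itgal at 26.6, 28.1 and 29.3 TPM against 46.1 and 44.8 TPM. Both were below every TfebWT library, at -0.64 (adjusted p = 0.14) and -0.68 (adjusted p = 0.078). In PBS, limma called 0 of the 5 members (0.717% of all genes), 4 had an unadjusted p under 0.05, and voom on the recovered reads called 3, among them Itgal (adjusted p = 9.2e-05) and Itgax (0.0046). Itgal fell with MSUc within TfebTg to 9.83, 7.65 and 6.59 TPM (-1.70, 47.5% of all genes called), and Icam1 rose (0.41, adjusted p = 0.0064). Itgam was called lower there (-0.23, adjusted p = 0.021), but its estimate was 0.05 with median-of-ratios scaling, and the call was lost without TfebTg PBS replicate 2 (0.072) or MSUc replicate 3 (0.055). No member's response differed by genotype (0 of 5 by limma, 0 with an unadjusted p under 0.05, 0 by voom, 0.1% of all genes). The 4 mast cell markers summed to 15.7 to 17.8 TPM with PBS and 26.2 to 29.3 TPM with MSUc in TfebTg, against 4.78 to 5.10 and 6.49 to 7.48 TPM in TfebWT, with Fcer1a and Mcpt4 at 0 throughout; their part in the result was not tested.

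In the Bhlhe table, Bhlhe40 and Bhlhe41, 2 related transcriptional repressors, gave different pictures. In B40KO cells, 0 of 5 members differed from WT with PBS or with MSUc by limma (0.0824% and 0.0165% of all genes), 0 had an unadjusted p under 0.05 and voom called 0. In B41KO cells Itgax was higher, at 92.1 and 104 TPM against 62.5 and 62.4 TPM with PBS (0.64 ± 0.10, adjusted p = 0.015, 2.76% of all genes called). With MSUc it was at 89.6 and 102 TPM against 60.5 and 60.6 TPM (0.65, adjusted p = 0.02, 1.33% called). Itgam was higher with MSUc too, at 151 and 155 TPM against 101 and 120 TPM (0.48 ± 0.08, adjusted p = 0.028), and with PBS it was at 200 and 193 TPM against 152 and 160 TPM without passing (0.33, adjusted p = 0.073).

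Each of these 3 calls was lost without some single libraries. The Itgax call with PBS was lost without WT PBS replicate 1 (0.092), WT PBS replicate 2 (0.064) or B41KO PBS replicate 2 (0.14). With MSUc it was lost without WT MSUc replicate 1 (0.096), B41KO MSUc replicate 1 (0.063) or replicate 2 (0.13), and with the groups fitted alone (0.055). The Itgam call with MSUc was lost without WT MSUc replicate 1 (0.14, estimate 0.35), B41KO MSUc replicate 1 (0.12) or replicate 2 (0.16), with the groups fitted alone (0.13) and with no filter on low values (0.055). Neutrophil markers, of which 3 of 7 tested rose in B41KO, summed to 111 and 120 TPM with PBS and 179 and 184 TPM with MSUc, against 25.7 and 28.5 and 43.4 and 49.3 TPM in WT, where Ly6g and Retnlg were at 0. Their part in the Itgam and Itgax values was not tested. MSUc lowered Itgal within B40KO (26 and 19.6 TPM against 69.8 and 58.0 TPM, -1.45, 61.5% of all genes called) and within B41KO (27.9 and 25.7 TPM against 64.1 and 49.3 TPM, -1.04, 56.8% called), and it raised Icam1 in both (0.80 and 1.07). The response itself was called different from WT for 0 of 5 members in either knockout by limma and by voom (0.00824% and 0.132% of all genes), with an unadjusted p under 0.05 for 0 and 1 of them. The falls of Itgam in both (-0.44 and -0.36) lost their calls with median-of-ratios scaling (-0.08 and -0.05).

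Libraries labelled Ampka1KO had lower levels of all 5 genes with MSUc. Itgax was already low with PBS, at 9.51, 4.42 and 5.57 TPM against 28.8, 27.1 and 27.8 TPM in Ampka1WT (-2.0 ± 0.32, adjusted p = 0.00027). Icam1 was at 27.8, 25.1 and 25.5 TPM against 38.1, 40.1 and 43.1 TPM (-0.61 ± 0.12, adjusted p = 0.0011) and Itgb2 at 324, 334 and 334 TPM against 395, 400 and 427 TPM (-0.30 ± 0.07, adjusted p = 0.0038). Each of these PBS groups lay wholly below Ampka1WT. Itgal, at 58.8, 58.3 and 57.6 TPM against 71.3, 87.7 and 89.7 TPM, was called as well (-0.50 ± 0.19, adjusted p = 0.046), but it was lost without any 1 of Ampka1WT PBS replicates 2 (0.13) and 3 (0.14) and Ampka1KO PBS replicates 1 (0.09), 2 (0.096) and 3 (0.1). Itgam, at 237, 270 and 302 TPM against 304, 317 and 342 TPM, missed the threshold (-0.26 ± 0.10, adjusted p = 0.054), and it passed without Ampka1KO PBS replicate 3 (0.022). It also passed with median-of-ratios scaling (-0.46, adjusted p = 0.0019) and in voom (-0.37, adjusted p = 0.0015). So 4 of 5 members were called lower with PBS, where 47.7% of all genes were called and 13.8% were lower.

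With MSUc 5 of 5 were called lower, where 71.8% of all genes were called and 20.2% were lower. Icam1 was at 20.2, 14.5 and 17.6 TPM in Ampka1KO against 90.1, 112 and 94.6 TPM in Ampka1WT (-2.44 ± 0.12, adjusted p = 7.3e-09). Itgb2 was at 120, 131 and 111 TPM against 401, 381 and 407 TPM (-1.71 ± 0.07, adjusted p = 2.7e-09), and Itgam at 95.5, 107 and 85.5 TPM against 235, 249 and 229 TPM (-1.31 ± 0.10, adjusted p = 2.8e-07). The groups were separated by wide gaps for these 3 genes. Itgax was at 4.53, 4.07 and 3.82 TPM against 41.5, 33.8 and 14.8 TPM (-2.48 ± 0.32, adjusted p = 2.1e-05), with Ampka1WT MSUc replicate 3 well below its group, and Itgal at 11.5, 17.2 and 10.8 TPM against 22, 21.5 and 33.8 TPM (-0.92 ± 0.19, adjusted p = 0.00085).

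The response to MSUc itself differed by genotype for 3 members. Icam1 rose with MSUc in Ampka1WT and fell in Ampka1KO, from 27.8, 25.1 and 25.5 TPM to the values above (-0.57 ± 0.12, adjusted p = 0.0015), and the difference in response was -1.83 ± 0.17 (adjusted p = 9.1e-06). Itgb2 fell within Ampka1KO (-1.45) and had an estimate of -0.04 in Ampka1WT, a difference of -1.41 ± 0.10 (adjusted p = 2.1e-06). Itgam fell further in Ampka1KO (-1.48) than in Ampka1WT (-0.43), by -1.05 ± 0.14 (adjusted p = 0.00014). Itgal fell in both, and its difference of -0.42 did not pass (adjusted p = 0.2). It passed without Ampka1KO MSUc replicate 2 (-0.61, adjusted p = 0.046) and, at the threshold, with median-of-ratios scaling (-0.71, adjusted p = 0.05). Itgax did not pass either within Ampka1KO (-0.49, adjusted p = 0.2) or in the difference (-0.48, adjusted p = 0.4), but without Ampka1WT MSUc replicate 3 the difference was -0.90 and passed (adjusted p = 0.032). Of all genes, 50.6% were called for a difference in response (15.9% towards lower), so a call of this kind was common in this table. Within Ampka1KO, MSUc called 4 of 5 members and 58.5% of all genes. The ratio of alpha subunits to Itgb2, 1.01 with PBS in Ampka1KO (0.943 to 1.09), was 0.935 with MSUc (0.901 to 0.977), and these groups overlapped. In Ampka1WT it went from 1.06 to 0.742.

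Other cell markers separated these 2 genotypes. All 4 fibroblast markers rose in Ampka1KO, and their summed level was 774 to 1234 TPM with PBS and 2127 to 2683 TPM with MSUc, against 74.1 to 138 and 65.2 to 209 TPM in Ampka1WT, with none at 0. The 7 macrophage markers summed to 24459 to 27156 TPM with PBS (5 fell and 2 rose) and 8298 to 10424 TPM with MSUc (7 of 7 fell), against 36671 to 40810 and 29059 to 34894 TPM. Of 7 neutrophil markers tested 5 rose, with sums of 278 to 326 TPM over all 9 with MSUc against 10.7 to 58.9 TPM, and Ly6g was at 0 in Ampka1WT with MSUc. The dendritic cell markers, which share no gene with the 5 members, summed to 1.60 to 3.53 TPM with MSUc against 11.5 to 17.4 TPM, with Batf3, Cd209a, Clec9a and Flt3 at 0 in Ampka1KO. The part of this mixture in the members' levels was not tested, and genotype and cell mixture cannot be told apart in these libraries.

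**Figure D4:**
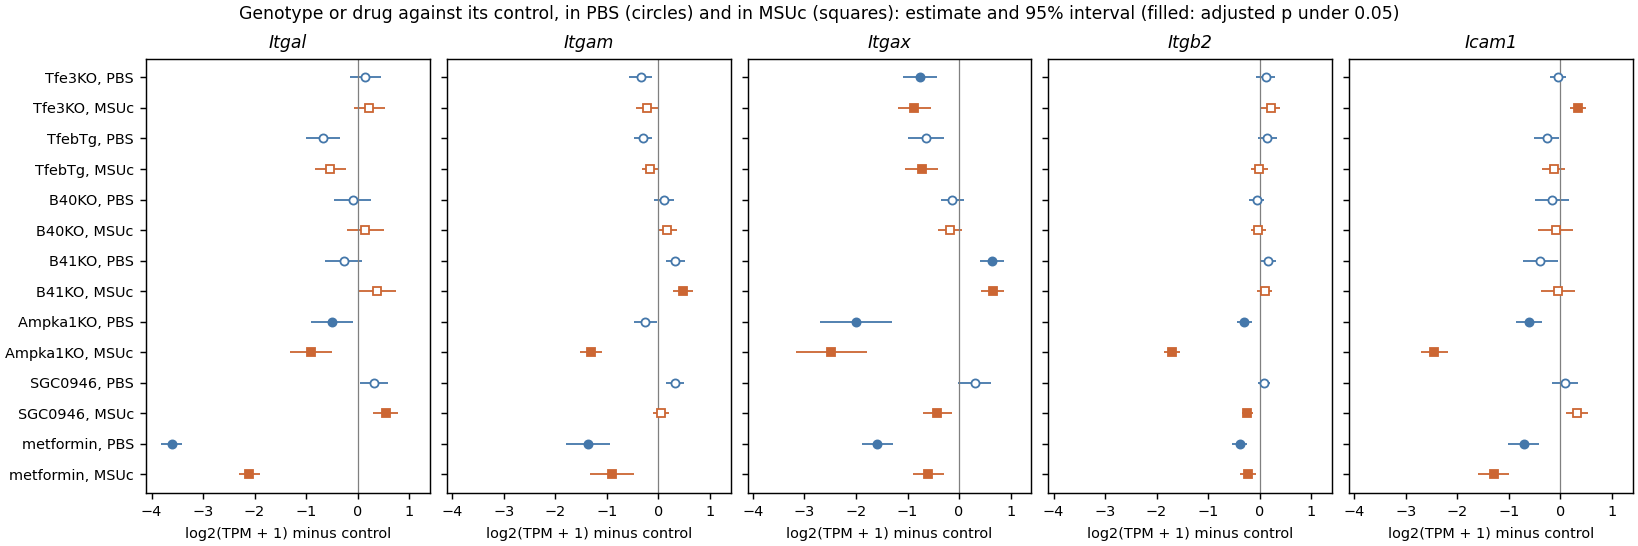
Each genotype or drug minus its control on the log2(TPM + 1) scale (x axis) with the 95% interval, in PBS (circles) and MSUc (squares), filled where the adjusted p was under 0.05. Ampka1KO and metformin lie furthest below 0, with Itgal under metformin in PBS at -3.61, and both Itgax values of B41KO are filled and lie above 0.

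SGC0946, the DOT1L inhibitor, changed 3 of the members with MSUc present, and by little. With PBS, limma called 0 of 5 (0.673% of all genes), 2 had an unadjusted p under 0.05 and voom called 3. With MSUc 16.6% of all genes and 3 of 5 members were called. Itgal was at 25.2, 22.6 and 25.3 TPM with SGC0946 against 13.8, 17.8 and 18.0 TPM with vehicle (0.54 ± 0.11, adjusted p = 0.0089), and Itgb2 at 491, 460 and 468 TPM against 580, 575 and 525 TPM (-0.24 ± 0.05, adjusted p = 0.0084). Neither pair of groups overlapped, and the Itgb2 estimate was -0.13 in voom. Itgax, at 36.3, 33.3 and 27.9 TPM against 38.5, 53.7 and 40.05 TPM, was called at the edge (-0.42 ± 0.13, adjusted p = 0.049). That call was lost without vehicle MSUc replicate 2 (0.13, estimate -0.27), vehicle MSUc replicate 3 (0.052) or SGC0946 MSUc replicates 1 (0.055), 2 (0.09) and 3 (0.17), and under 4 other settings. Icam1 was at 73.6, 71.2 and 71.1 TPM against 64.5, 55.5 and 52.8 TPM and missed the threshold (0.32, adjusted p = 0.052); it passed without vehicle MSUc replicate 1 (0.026) and with median-of-ratios scaling (0.37). Longer transcripts were lower with SGC0946 in these libraries (Spearman's rho with transcript length over 12324 genes -0.448), and the part of length in the members' values was not tested. The vehicle MSUc libraries held 6.63, 2.83 and 3.54 M reads and the SGC0946 MSUc libraries 11.5, 12.2 and 8.64 M. The part of this difference in depth was not tested either.

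Within SGC0946-treated cells, MSUc lowered Itgal (-1.63) and Itgam (-0.93) and raised Icam1 (0.69), the directions called in vehicle cells. Itgax fell there, from 59.8 and 57.4 TPM to the values above (-0.84, adjusted p = 0.00074), while in vehicle cells it did not pass (-0.11, adjusted p = 0.49). The test of that difference gave -0.73 (adjusted p = 0.19), past the threshold in voom alone (-0.62, adjusted p = 0.016). For differences in response, limma called 0 of 5 (0.0325% of all genes), 3 had an unadjusted p under 0.05 and voom called 2. Itgb2 was called lower with MSUc in SGC0946 (-0.17, adjusted p = 0.025, 48.9% of all genes called), with an estimate of 0.14 under median-of-ratios scaling.

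Metformin, a biguanide drug, gave the largest change of a member in any comparison here, that of Itgal with PBS. Itgal was at 4.22, 3.85 and 4.10 TPM with metformin and at 60.6, 58.2 and 63.7 TPM with vehicle (-3.61 ± 0.10, adjusted p = 4e-10). Itgax was at 12.8, 10.9 and 9.32 TPM against 38.0, 32.1 and 34.7 TPM (-1.59 ± 0.14, adjusted p = 3.7e-06) and Itgam at 48.2, 56.0 and 46.8 TPM against 131, 134 and 127 TPM (-1.36 ± 0.20, adjusted p = 0.00018). All 3 alpha subunits were far below vehicle. Their ligand and partner fell less. Icam1 was at 23.4, 21.6 and 20.1 TPM against 35.9, 39.0 and 33.7 TPM (-0.71 ± 0.14, adjusted p = 0.0016) and Itgb2 at 359, 335 and 365 TPM against 466, 446 and 479 TPM (-0.39 ± 0.07, adjusted p = 0.00082). So 5 of 5 members fell with PBS, where 39.5% of all genes were called and 16.3% fell. The ratio of alpha subunits to Itgb2 was 0.186 with metformin and 0.489 with vehicle.

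With MSUc, 5 of 5 were again lower with metformin, where 43.6% of all genes were called and 14.0% fell. Itgal was at 4.04, 4.12 and 3.38 TPM against 19.7, 19.4 and 20.1 TPM (-2.10, adjusted p = 1e-07), and Icam1 at 14.7, 20.7 and 14.8 TPM against 36.8, 41.4 and 48.7 TPM (-1.30, adjusted p = 3e-05). Itgam was at 25.9, 55.0 and 42.7 TPM against 75.4, 70.0 and 77.6 TPM (-0.90, adjusted p = 0.0031) and Itgax at 13.8, 17.7 and 16.5 TPM against 28.4, 21.6 and 24.6 TPM (-0.60, adjusted p = 0.0043). The change of Itgb2, at 273, 313 and 313 TPM against 351, 347 and 351 TPM, was small (-0.22, adjusted p = 0.021) and lost its call without vehicle MSUc replicate 1 (0.054) or 3 (0.052) and with the 2 groups fitted alone (0.09).

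MSUc itself did less to Itgal in metformin-treated cells. Their Itgal level was 4.04, 4.12 and 3.38 TPM with MSUc and 4.22, 3.85 and 4.10 TPM with PBS, overlapping groups (-0.06, adjusted p = 0.65), and the difference in response from vehicle was 1.51 ± 0.14 (adjusted p = 5.7e-05). Itgax rose with MSUc under metformin (0.51, adjusted p = 0.017), where it fell with vehicle, a difference of 0.99 ± 0.19 (adjusted p = 0.007). The rise under metformin was lost without metformin PBS replicate 3 (0.072) or metformin MSUc replicate 2 (0.059). Icam1 under metformin had an estimate of -0.37 with MSUc (adjusted p = 0.064), which was -0.52 and passed without metformin MSUc replicate 2 (0.011). Its difference in response from vehicle, -0.58 ± 0.20 (adjusted p = 0.072), passed without that library (-0.74, adjusted p = 0.018), with median-of-ratios scaling (-0.68, adjusted p = 0.029) and in voom (-0.63, adjusted p = 0.027). Itgam under metformin did not pass with MSUc (-0.34, adjusted p = 0.21), and Itgb2 was called lower (-0.24, adjusted p = 0.024), a call lost without metformin PBS replicate 1 (0.076) or 3 (0.087). Of all genes, 29.0% were called for MSUc under metformin and 12.2% for a difference in response (7.52% higher).

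The macrophage markers fell with metformin as well. With PBS, 6 of the 7 fell and Cd68 rose, and their sum was 11410 to 12991 TPM against 23040 to 25857 TPM with vehicle; with MSUc 4 fell and 1 rose (12946 to 15492 against 19207 to 22254 TPM), and none was at 0. Csf1r, which encodes the M-CSF receptor, fell by 1.82 on the log2 scale with PBS (275 against 972 TPM, adjusted p = 3.3e-08). The mast cell markers were higher, with sums of 12.1 to 15.8 against 1.39 to 1.67 TPM with PBS and 10.9 to 19.7 against 2.33 to 5.97 TPM with MSUc; with PBS, Kit, a growth factor receptor, was the 1 called of 2 tested (2.53, adjusted p = 9.6e-07), and Fcer1a and Mcpt4 were at 0. The part of these markers' changes in the members' falls was not tested.

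**Figure D5:**
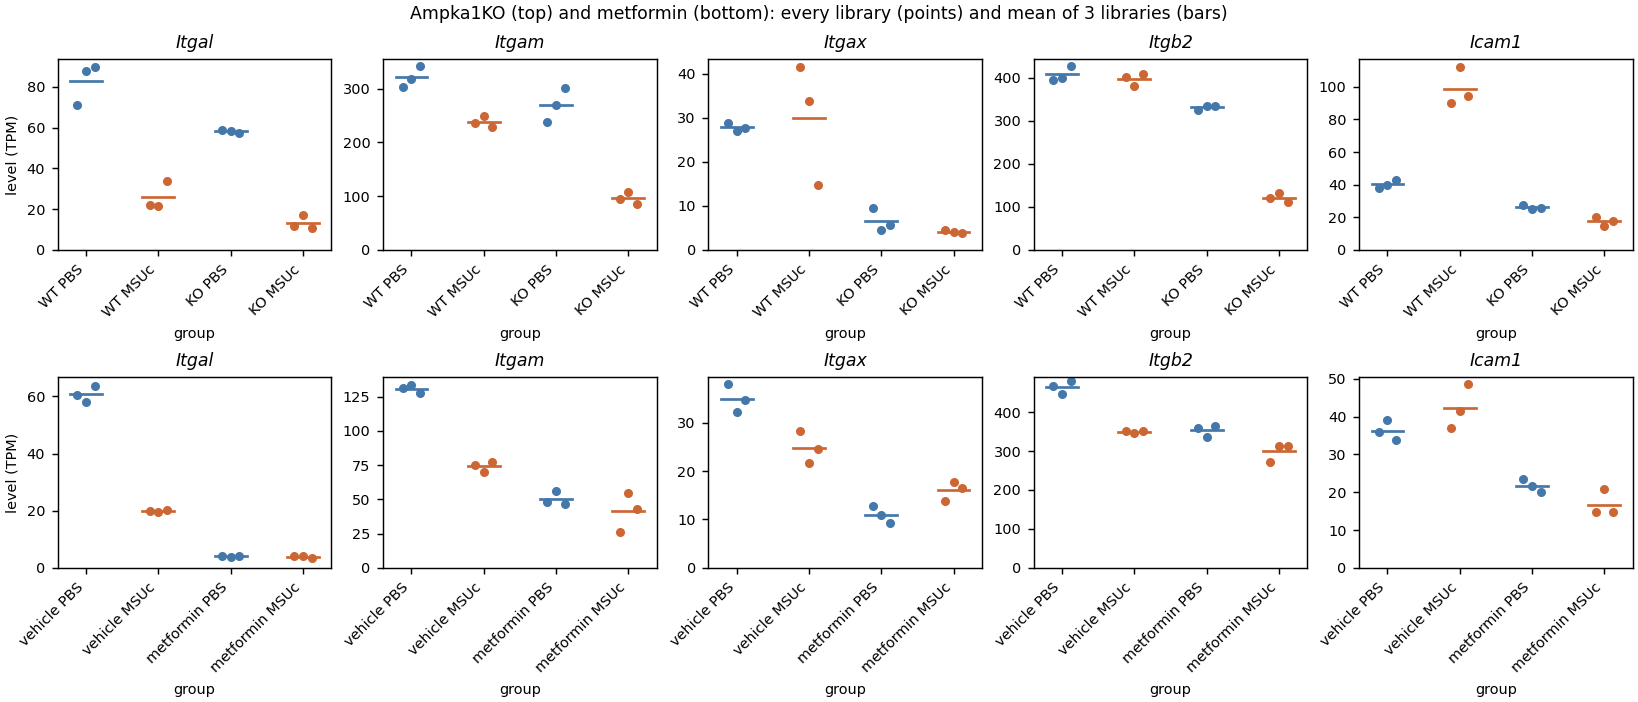
Level of each gene in TPM (y axis, from 0) by group (x axis) for Ampka1WT and Ampka1KO (top) and for vehicle and metformin (bottom), with each of 3 libraries as a point and the mean as a bar. Itgal stays at 3.38 to 4.22 TPM under metformin with PBS and MSUc alike, and Icam1 in Ampka1KO with MSUc (14.5 to 20.2 TPM) lies below every other group of its panel.

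Genes that act with these integrins were followed as lists, and 3 genes of each are named by their rank in the particle table's MSUc comparison. The counts stand beside the shares of all genes called in either direction: 63.0% for MSUc, 52.4% for CPPD, 68.4% for silica and 46.2% for alum in the particle table. The shares were 3.28%, 33.5% and 49.3% at 1, 2 and 5 h, 71.8% for Ampka1KO with MSUc, and 39.5% and 43.6% for metformin with PBS and MSUc. The list of NF-kappaB subunits and early targets rose as a whole with MSUc in the particle table, where 10 of 10 tested genes rose (median 1.07, against -0.29 over all genes). Among them, Cxcl2, a neutrophil-attracting chemokine, rose by 6.18, Tnfaip3, an inhibitor of the pathway, by 3.25 and Nfkb1, a subunit, by 1.20. In the time course 7 of 10 rose at 1 h, 10 at 2 h and 9 at 5 h. With CPPD and with alum 10 of 10 rose (medians 1.36 and 1.09), and with silica 5 rose and 2 fell (0.47), with Nfkb1 at 0.04 (adjusted p = 0.84). With MSUc, 10 of 10 were lower in Ampka1KO than in Ampka1WT (median -0.99, against 0.39 over all genes) and 8 of 10 were lower with metformin than with vehicle (-1.04). The part of this pathway in the Icam1 values was not tested.

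The other integrin subunits were mixed. With MSUc in the particle experiment 5 of 12 tested rose and 3 fell (median 0.29), the 3 falls being the 3 named genes of the list: Itga6, a laminin-binding alpha subunit (-2.23), Itgb5, a partner of alpha V (-1.97), and Itga4, a VCAM-1-binding alpha subunit (-1.94). Itga6 and Itgb5 also fell with CPPD (-2.21 and -1.86) and silica (-1.72 and -2.63), whereas with alum Itga6 was at -0.08 (adjusted p = 0.55) and 7 of the 12 rose. In Ampka1KO with MSUc 10 of 13 were higher and 3 lower, against 5 of 5 lower among the members. Of the list of other ligands (members of the ICAM and JAM families, Thy1 and Vcam1) 3 were tested in the particle table. Vcam1 rose with MSUc (1.07, adjusted p = 0.0079), F11r, a junctional adhesion molecule that binds LFA-1, fell (-1.21, adjusted p = 0.00089), and Icam2 did not pass (-0.15, adjusted p = 0.49). Vcam1 was higher by 2.61 in Ampka1KO with MSUc, where Icam1 was lower by 2.44. In those libraries the fibroblast markers were higher and the macrophage markers lower than in Ampka1WT. The part of this mixture in the Ampka1KO values of the lists was not tested.

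Of the genes of inside-out activation and the cytoskeletal link, 6 of 20 rose and 10 fell with MSUc in the particle table (median -0.29, which is that of all genes); with median-of-ratios scaling 8 rose and 6 fell. Rasgrp3, an exchange factor for Rap1, fell by 2.24 and Rassf5, the Rap1 effector that binds LFA-1, by 1.53, while Vcl, which encodes vinculin, rose by 1.60. With silica 6 of 20 rose and 13 fell (median -0.80). Of the outside-in kinases and adaptors, 3 of 14 rose and 6 fell with MSUc (7 and 3 with median-of-ratios scaling). Src rose by 2.01 and Syk by 1.17, and Pik3cd, the leukocyte PI3-kinase subunit, fell by 1.81. In Ampka1KO with MSUc 11 of 14 of this list were lower (median -1.39), Syk among them (-2.01), and with metformin in PBS 9 of 14 were lower (-0.54). Of 7 myeloid transcription factors of integrin promoters, 2 rose with MSUc in the particle table, Cebpb (1.95) and Klf4 (1.92), and 1 fell, Irf8 (-0.86). With silica 5 of 7 fell (median -0.68), with Irf8 at -1.60.

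Across the 45 group means, the genes closest to each member were sought among 9002 genes by Pearson's correlation. The log2 levels were first centred within each table on the mean of its groups, so differences between tables do not enter. The correlations are a description over groups that share tables and controls. For Itgal they were Lrrc25 (r = 0.94), Zmynd15 (0.94) and Ncf1 (0.93), and for Itgam Csf1r (0.94), Vsir (0.92) and C1qa (0.91). Itgal and Itgam were close to each other (0.88), and Itgam was the 32nd gene in the order for Itgal. For Itgax the closest were Mamdc2 (0.79), Cd5l (0.79) and Fcrls (0.75), for Itgb2 Gpnmb (0.91), Arap1 (0.91) and Pip5k1c (0.90), and for Icam1 F10 (0.90), Gpr84 (0.89) and Sod2 (0.88). Itgb2 was nearer to Itgax (0.61) than to Itgal (0.24), and Icam1 and Itgal had r = -0.07.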

How the data were processed

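The expression tables hold the authors' deposited TPM values per RefSeq transcript, 1 row per gene; TPM is not named in the headers and was read from the values, and per the submitters' processing notes STAR, HOMER and mm10 were used. Low values were whole multiples of 1 read in at least 99.9567% of cases (within 0.15 read), which gave the reads per library. The region lists hold the authors' deposited signal over 2000 bases, scaled to 1 library total, with the log2 fold changes and adjusted p-values that the authors computed. Their peak lists carry positions without signal.

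Groups came from sample titles, and 2 value columns matching no listed sample were not used. A count test had been planned for count tables; since the files hold TPM, differences were fitted on log2(TPM + 1) with limma 3.58.1 in R 4.3.3 (eBayes with trend), 1 fit per table over all its groups, for genes reaching 1 TPM, with Benjamini-Hochberg adjustment over all genes tested and a threshold of 0.05. Fold changes on this scale understate those of low genes. Python 3.11.15, numpy 2.4.6, pandas 2.3.3, scipy 1.17.1 and matplotlib 3.10.9 did the rest, and the fit was tested on simulated data. Alternatives were pseudocounts of 0.25 and 5, no filter, median-of-ratios scaling, voom on the recovered reads, a robust variance prior, the compared groups alone, the replicate number as a block and leaving out each library. Libraries of a group differed from each other beyond counting noise in all 95 pairs (chi-square per degree of freedom at least 2.49), so none was merged.

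Among comparisons with 3 pairs, same-numbered libraries deviated together in every pair (correlation over 0.1) for CPPD and silica in Tfe3WT, for the 3 particles in Tfe3KO and for CPPD against MSUc. Named genes are the 5 members, of each list the 3 tested genes with the smallest p for MSUc in the particle table, the 3 genes most like each member, the targeted genes, and markers where they moved. The members, lists, markers and motifs were chosen with earlier results of these data known. Promoters were read from RefSeq's table and searched on both strands for PU.1, NF-kappaB, E-box and AP-1 motifs, with the 2 additions named in the text.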

Additional observations from a re-analysis of the deposited data

Results flagged for a closer look

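In 5 cases the response to MSUc of a member differed between 2 groups by the interaction term of limma. In Ampka1KO minus Ampka1WT the difference was -1.05 for Itgam (adjusted p = 0.00014), -1.41 for Itgb2 (adjusted p = 2.1e-06) and -1.83 for Icam1 (adjusted p = 9.1e-06). For these 3 genes each Ampka1KO library with MSUc lay below each of the 9 other libraries of the table. In metformin minus vehicle it was 1.51 for Itgal (adjusted p = 5.7e-05) and 0.99 for Itgax (adjusted p = 0.007). Itgal fell with MSUc in vehicle cells (-1.57) and was at 3.38 to 4.22 TPM over the 6 metformin libraries with and without MSUc. Itgax fell in vehicle cells (-0.48, adjusted p = 0.011) and rose with metformin (0.51, adjusted p = 0.017). The macrophage and fibroblast markers that differ between the Ampka1 groups, and the macrophage markers that differ with metformin, are given beside those results; their part was not tested.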

How the results depend on the processing

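Of 270 estimates (5 members in 54 comparisons) 131 were called, and 93 of these kept the call in every setting and without every single library. Of the 131, 29 lost it without at least 1 library and 33 in at least 1 other setting. With 2 or 3 libraries a group the spread between libraries limits small differences, and counting error adds to it for the lowest levels: the fewest reads of a member in a library were 59 (Itgax, Ampka1KO with MSUc, replicate 3). The calls numbered 9 of 25 in the time course, 25 of 35 for MSUc elsewhere, 29 of 40 for other particles, 32 of 80 for genotype and drug, 31 of 45 for particles in mutant or treated cells and 5 of 45 for differences in response. With the time-course groups fitted alone 4 were called, and voom called 8 differences in response. Leaving out 1 library gave 7 to 9, 23 to 26, 27 to 29, 30 to 33, 29 to 32 and 5 to 6 calls.

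With the replicate block the calls were 8, 26, 30, 32, 31 and 7; where the numbers pair the libraries it changed Itgam for CPPD against MSUc and the Icam1 response to CPPD of Tfe3KO against Tfe3WT, both given above. The block also gave an adjusted p of 0.04 for the Icam1 response to MSUc of Tfe3KO against Tfe3WT. Same-numbered libraries there correlated at 0.083 to 0.198 in Tfe3WT and at 0.158 to 0.368 in Tfe3KO. Elsewhere pairing by number was weaker, negative or not examined. There the block gave adjusted p of 0.058 for Itgam at 2 h and 0.039 for Icam1 with MSUc in TfebWT. It gave 0.042 for Itgam in B41KO with PBS and 0.054 for Itgal in Ampka1KO with PBS. In the time course same-numbered libraries correlated at 0.721 at 10 min and between -0.63 and -0.75 later; a crossed block, chosen after seeing the data, called 10, adding Itgal at 2 h. Without the 4 Tfe3KO libraries numbered 1, calls were 34, 32 and 5 for genotype and drug, mutant or treated cells, and differences in response.

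Some estimates changed sign, of which 2 had been called, Itgam with MSUc in TfebTg (-0.23) and Itgb2 with MSUc in SGC0946 (-0.17). With median-of-ratios scaling Itgax with silica was 0.21, Itgam with MSUc in TfebTg 0.0484, Itgb2 in Ampka1WT 0.32, Itgax in the SGC0946 vehicle 0.14, Itgb2 in SGC0946 0.14, Itgax with silica in Tfe3WT 0.0733 and Icam1 with alum against MSUc -0.37. With the block Itgam with alum was 0.0321, and in voom Itgb2 in WT of the Bhlhe table was -0.0174 and Icam1 with alum against MSUc -0.12. Leaving out 1 library moved Itgax with silica from -0.33 to 0.0712, Itgam with alum from -0.12 to 0.0402, Itgb2 in WT of the Bhlhe table from -0.0133 to 0.0289, Itgax with silica in Tfe3WT from -0.16 to 0.0844, Icam1 with alum against MSUc from -0.0184 to 0.14 and Itgal with MSUc under metformin from -0.10 to 0.0083. The cause was not tested. With TfebWT MSUc replicate 3 placed in PBS, Itgal (-1.25, adjusted p = 0.2) and Itgam (-0.30, adjusted p = 0.21) lost their MSUc calls there, as did Itgb2 (0.13, adjusted p = 0.54).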

Other observations

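In the time course, Itgal split the libraries at each time point into a higher and a lower one, with or without MSUc. At 10 min, replicate 1 was the higher of both groups (68.6 against 46.8 TPM with PBS and 69.6 against 46.5 TPM with MSUc). From 30 min to 5 h, replicate 2 was the higher with PBS (70.6, 69.0, 65.5 and 79.6 TPM, against 44.1, 48.4, 46.4 and 48.3 TPM), and replicate 1 was the higher with MSUc throughout. The same library was the higher one for Icam1 in 10 of these 10 groups and for Itgam in 9 of 10, the exception being MSUc at 5 h (195 TPM in replicate 1 and 212 TPM in replicate 2). For Itgb2 it was the lower one in 9 of the 10 and for Itgax in 8 of the 10. In the Ampka1WT group with MSUc, replicate 3 stood apart in both Itgax (14.8 TPM against 41.5 and 33.8 TPM) and Itgal (33.8 TPM against 22 and 21.5 TPM).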
